A study of Mus musculus with 4 samples.

Results

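The collagen and basement membrane genes examined here are all genes of the deposited tables named as collagen chains (Col, a type number, a and a chain number) or laminin chains (Lama, Lamb or Lamc and a number), together with Eln, Fbn1, Nid1, Hspg2, Sparc, Hmcn1, Mfap2, Abi3bp and Fbln2. There are 51 of them among 20640 genes. By role they are 9 network-forming and 9 fibrillar collagen chains, 5 fibril-associated, 3 beaded-filament (type VI), 2 transmembrane and 1 anchoring collagen chain, 2 multiplexins, 5 laminin α, 3 laminin β and 3 laminin γ chains, 1 nidogen, perlecan, 4 elastic fibre genes and 3 other matrix proteins (Sparc, Hmcn1 and Abi3bp). Nid2, which the same rule names, was not analysed here.

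Basement membranes are thin sheets of matrix under epithelium and endothelium and around smooth muscle. They hold a laminin network and a type IV collagen network, which nidogen and the heparan sulphate proteoglycan perlecan help to join, and the α1 and α2 chains of type IV collagen form one triple helix found around most vessels. The interstitium holds fibrils of type I, III and V collagen made mainly by fibroblasts, and elastic fibres in which elastin is laid on microfibrils of fibrillin. In the alveolus the basement membranes of capillary and epithelium are fused in places, and elastic fibres give the lung its recoil.

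Single-cell RNA sequencing was done on lungs of female C57BL/6 mice, 8 weeks old when injected, that all carried HKP1 tumours. HKP1 is a mouse lung tumour line, of which 150000 cells were given through the tail vein, and mice were grouped on day 6 by the light signal of their tumours. One group received 4 Gy on each of 3 days, day 10 to day 12, and the other a mock treatment (0 Gy), and lungs were taken 24 to 48 h later. Live cells from 4 mice per dose were sorted into CD45-negative cells and CD45-positive leukocytes, which gave 4 libraries of 10x Genomics 3′ chemistry, 1 for each dose and sort, with no label that ties a cell to a mouse. The comparison is 4 Gy against 0 Gy within cell classes of the CD45-negative libraries. With 1 library per dose there is no replicate and no test. The 95% intervals in brackets cover counting error only, so that differences between mice, sorts or libraries cannot be told apart from the dose.

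The CD45-negative libraries held 4313 barcodes with 12448164 UMIs (unique molecular identifiers, each marking 1 captured RNA molecule) at 4 Gy and 5979 barcodes with 14885765 UMIs at 0 Gy. Any pair of the 4 libraries shared between 3 and 17 barcodes. Cells were put into 8 classes by marker genes, none of which is a member, and were kept where their cluster was of the same lineage. Cells outside these classes were left out of the comparison. The largest such group was endothelial-like cells without a subtype, 495 at 4 Gy and 569 at 0 Gy. General-capillary-like cells, marked by Gpihbp1, Aplnr and Kit, numbered 2806 at 4 Gy and 3830 at 0 Gy. Aerocyte-like cells, the wide capillary cells of the alveolus marked by Ednrb, Apln and Fibin, numbered 309 at 4 Gy and 445 at 0 Gy. There were 119 at 4 Gy and 140 at 0 Gy of the venous-like cells and 49 at 4 Gy and 44 at 0 Gy of the arterial-like cells. The scarce classes were tumour-epithelial-like (40 at 4 Gy and 90 at 0 Gy), mesothelial-like (21 at 4 Gy and 44 at 0 Gy), fibroblast-like (19 at 4 Gy and 25 at 0 Gy) and mural-like cells (15 at 4 Gy and 31 at 0 Gy). The mural-like class was led by smooth muscle genes (Myl9, Myh11, Des, Acta2). The tumour-epithelial-like class was led by Lgals2, Onecut2 and Lgals4 and had Krt19 at 2867 CPM at 4 Gy and 2487 CPM at 0 Gy, with 0 UMIs at 4 Gy and 3 at 0 Gy of Epcam. Levels are CPM, the UMIs of a gene in a class scaled to one common total for all classes, and a member is called measured in a class where it had at least 10 UMIs over both libraries.

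The members were unevenly spread over the classes. Summed over all 51, they stood at 19751 CPM at 4 Gy and 16677 CPM at 0 Gy in mesothelial-like cells and at 16305 CPM at 4 Gy and 25397 CPM at 0 Gy in fibroblast-like cells. Mural-like cells had 6806 CPM at 4 Gy and 8090.3 CPM at 0 Gy. Among endothelial cells the sums were 3102 CPM at 4 Gy and 3194 CPM at 0 Gy in the arterial-like class, 2645 CPM at 4 Gy and 2861 CPM at 0 Gy in the venous-like class, 2644 CPM at 4 Gy and 3209.5 CPM at 0 Gy in the general-capillary-like class and 2123 CPM at 4 Gy and 2369 CPM at 0 Gy in the aerocyte-like class. Tumour-epithelial-like cells held the least, 1228 CPM at 4 Gy and 725 CPM at 0 Gy. Of 37 members with at least 30 UMIs over the 8 classes, 11 had their highest level in fibroblast-like and 11 in mesothelial-like cells at 4 Gy, against 17 and 6 at 0 Gy. For 23 of the 37 the same class stood highest at both doses. In fibroblast-like cells 1 cell held 37.6% of the member UMIs at 0 Gy. Without the cell with the most member UMIs at each dose the sums of that class were 14124 CPM at 4 Gy and 17504 CPM at 0 Gy. The ranking of classes was not repeated without those cells.

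**Figure D1:**
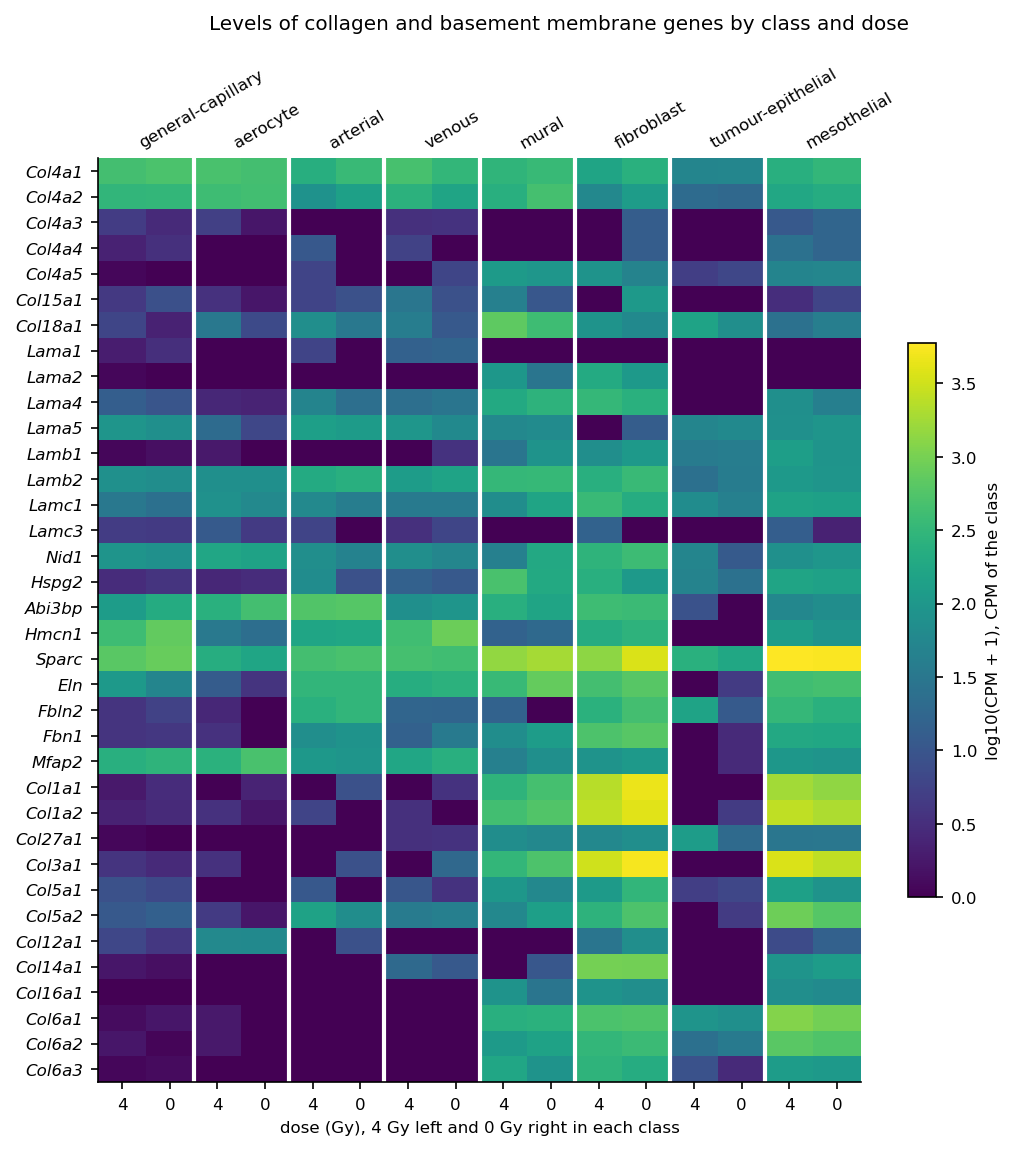
Colour shows the level of each of 36 members (rows, those with at least 30 UMIs over the classes and measured in at least 2 of them) as log10(CPM + 1) in 8 classes (column pairs), with 4 Gy left and 0 Gy right in each pair. Fibrillar collagens are bright in fibroblast-like and mesothelial-like cells (Col3a1 at 3229.6 CPM at 4 Gy and 5348 CPM at 0 Gy in fibroblast-like cells), while Col4a1 is seen in all 8 classes.

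In general-capillary-like cells type IV collagen, the main laminin chains and Nid1 differed by under 1.5-fold between doses, while elastin was higher and hemicentin-1 and Abi3bp were lower at 4 Gy. Of 30 members measured, 2 were at least 1.5-fold higher at 4 Gy, beside 2.16% of all 15019 genes measured in the class, and 3 at least 1.5-fold lower, beside 1.01% of all genes. The median log2 ratio of the measured members was -0.06, against 0.03 over all measured genes. The fold threshold was applied to CPM + 5, so that members with a few UMIs pass it less easily.

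The type IV collagen pair stayed under the threshold in these cells. Col4a1 stood at 446 CPM at 4 Gy and 515 CPM at 0 Gy, a ratio of 0.866 [0.823 to 0.91]. Its partner Col4a2 stood at 309 CPM at 4 Gy and 312 CPM at 0 Gy, a ratio of 0.992 [0.932 to 1.06]. Both genes lie head to head on chromosome 8 (GRCm38, GENCODE), Col4a1 at 11198423 to 11312826 on the minus strand and Col4a2 at 11312805 to 11449287 on the plus strand. Their promoter windows are shown because the chains share a start region and one triple helix, and are set against that of Hmcn1 on chromosome 1, the abundant member with the lowest ratio in these cells. Each window is 300 bases long, 250 before and 50 after the start, from RefSeq (GRCm38.p6). They lie at chr8:11312777-11313076 on the minus strand, chr8:11312555-11312854 on the plus strand and chr1:150993386-150993685 on the minus strand. Capitals mark the 78 bases that both Col4 windows share on opposite strands (chr8:11312777-11312854), and in the Hmcn1 window its matches to CCAAT on either strand.
Col4a1: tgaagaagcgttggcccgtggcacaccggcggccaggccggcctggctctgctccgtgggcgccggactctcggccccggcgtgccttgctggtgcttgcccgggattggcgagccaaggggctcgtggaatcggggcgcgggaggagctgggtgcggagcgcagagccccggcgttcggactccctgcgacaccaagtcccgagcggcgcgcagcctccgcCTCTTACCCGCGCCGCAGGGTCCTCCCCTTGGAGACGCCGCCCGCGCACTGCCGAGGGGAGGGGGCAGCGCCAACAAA
Col4a2: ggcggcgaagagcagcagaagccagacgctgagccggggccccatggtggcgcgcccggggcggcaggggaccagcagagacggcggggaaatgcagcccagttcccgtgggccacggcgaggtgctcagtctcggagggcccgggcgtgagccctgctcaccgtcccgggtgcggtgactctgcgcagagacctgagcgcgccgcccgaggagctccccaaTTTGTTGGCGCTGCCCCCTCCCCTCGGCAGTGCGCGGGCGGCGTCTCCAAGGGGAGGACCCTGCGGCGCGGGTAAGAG
Hmcn1: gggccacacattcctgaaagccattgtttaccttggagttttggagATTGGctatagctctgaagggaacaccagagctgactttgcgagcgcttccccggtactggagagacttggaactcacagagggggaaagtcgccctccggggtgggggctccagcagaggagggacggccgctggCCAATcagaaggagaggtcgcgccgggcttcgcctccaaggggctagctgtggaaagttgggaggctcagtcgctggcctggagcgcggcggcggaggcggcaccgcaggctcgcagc
On either strand the GC box, GGGCGG, has 1 match in the Col4a1 window, 3 in the Col4a2 window and 0 in the Hmcn1 window. The CCAAT box, CCAAT, has 1 in Col4a1, 1 in Col4a2 and 2 in Hmcn1, and the TATA box, TATAAA, has 0 in each. Each motif was searched on its own, so that overlapping matches of different motifs each count. Of 32851 mouse promoter windows of this length, 35.7% hold GGGCGG, 37.4% hold CCAAT and 13.6% hold TATAAA. Among the 41 windows of the 37 members that matched the table, GGGCGG occurs in 25, CCAAT in 13 and TATAAA in 4. G and C make up 74% of the Col4a1 window, 73.7% of the Col4a2 window and 63.3% of the Hmcn1 window.

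The laminin genes with the most UMIs and Nid1 stood slightly higher at 4 Gy in general-capillary-like cells, all under the 1.5-fold threshold. Lama5, a laminin α chain of vascular basement membrane, had 90.8 CPM at 4 Gy and 76 CPM at 0 Gy, a ratio of 1.19 [1.06 to 1.35]. Lamb2, a β chain that pairs with it, had 77.6 CPM at 4 Gy and 70.5 CPM at 0 Gy, a ratio of 1.1 [0.968 to 1.25]. Lamc1, the γ chain that most laminins share, had 31.5 CPM at 4 Gy and 23.7 CPM at 0 Gy, a ratio of 1.33 [1.07 to 1.65]. Those 3 chains can make up 1 laminin trimer, and the interval of Lamb2 held 1. Among cells with a UMI of the marker Lyve1 the ratio was 1.35 for Lamc1 and 1.08 for Lamb2, and among cells without one 1.0 and 1.3. In 12 clusters with at least 50 cells of the class at each dose the Lamc1 ratio lay between 0.493 and 1.94, above 1 in 8 and below 1 in 4. Nid1, the nidogen that bridges laminin and type IV collagen, had 90.4 CPM at 4 Gy and 78.4 CPM at 0 Gy, a ratio of 1.15 [1.02 to 1.3]. Perlecan, the product of Hspg2, was hardly detected, with 12 UMIs at 4 Gy and 19 at 0 Gy, a ratio of 0.751 [0.332 to 1.63].

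Elastin was the abundant member with the highest ratio in general-capillary-like cells. Eln had 635 UMIs in 461 cells at 4 Gy and 367 UMIs in 318 cells at 0 Gy, or 106 CPM at 4 Gy and 51.5 CPM at 0 Gy, a ratio of 2.06 [1.81 to 2.34]. The other elastic fibre genes were under the threshold. Mfap2, a glycoprotein of microfibrils, had 241 CPM at 4 Gy and 284 CPM at 0 Gy, a ratio of 0.849 [0.793 to 0.908], and Fbn1 and Fbln2 stood under 5 CPM at both doses. Col18a1, the multiplexin whose end fragment is endostatin, was the other member past the threshold upward. It had 31 UMIs in 15 cells at 4 Gy and 9 UMIs in 9 cells at 0 Gy, with up to 7 in 1 cell at 4 Gy, a ratio of 4.09 [1.9 to 9.77]. A single cluster, with 84 cells of the class at 4 Gy and 100 at 0 Gy, held 18 of these UMIs at 4 Gy and 0 at 0 Gy. The ratio without that cluster was not computed. When each cell was thinned to 1000 UMIs, and shallower cells left out, the Col18a1 ratio was 1.98.

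The lower members were Hmcn1, Abi3bp and Col15a1. Hmcn1, which encodes the giant extracellular protein hemicentin-1, stood at 406 CPM at 4 Gy and 736 CPM at 0 Gy, a ratio of 0.552 [0.526 to 0.579]. Abi3bp, a secreted matrix protein, stood at 122 CPM at 4 Gy and 212 CPM at 0 Gy, a ratio of 0.578 [0.529 to 0.632]. Col15a1, the other multiplexin, had 19 UMIs at 4 Gy and 53 at 0 Gy, a ratio of 0.426 [0.238 to 0.731]. That ratio moved with the cells taken, to 0.749 [0.297 to 1.67] among cells without a Lyve1 UMI, 0.382 [0.168 to 0.815] among those with one and 0.141 in thinned cells. In the 6 clusters where it could be formed it lay between 0.145 and 5.63, below 1 in 4. Sparc, a collagen-binding glycoprotein and the member with the most UMIs here, had 648 CPM at 4 Gy and 779.5 CPM at 0 Gy, a ratio of 0.832 [0.798 to 0.867].

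General-capillary-like cells fell into many clusters, and several were held mostly by 1 library. Cdkn1a, a cell-cycle inhibitor and p53 target that led clusters held mostly by the 4 Gy library, stood at 2472 CPM at 4 Gy and 345 CPM at 0 Gy in the class. In the 12 clusters with at least 50 cells of the class at each dose, the Hmcn1 ratio was below 1 in 12, between 0.477 and 0.955. The Eln ratio was above 1 in 10 of these clusters, between 0.547 and 3.29, and the Lama5 ratio in 10, between 0.905 and 2.15. For Abi3bp the ratio was below 1 in 8, between 0.469 and 1.08, and for Col4a1 in 8, between 0.573 and 1.29. Those 12 clusters hold most of the class's cells at 0 Gy but leave out most of them at 4 Gy. The largest clusters left out held 588 cells at 4 Gy and 15 at 0 Gy, 430 and 26, and 377 and 9, counting cells of any class. Lyve1, one of the markers of the class, itself stood at 1987 CPM at 4 Gy and 733 CPM at 0 Gy. Gpihbp1, another marker, went the other way, at 1512.5 CPM at 4 Gy and 2586 CPM at 0 Gy. All 10 general-capillary markers summed to 13422 CPM at 4 Gy and 15039 CPM at 0 Gy. The part of these markers in the ratios of the members was not tested. Among cells with a Lyve1 UMI (2181 at 4 Gy and 1938 at 0 Gy) the Eln ratio was 2.04 [1.73 to 2.42] and the Hmcn1 ratio 0.591 [0.556 to 0.628]. Among cells without one (625 at 4 Gy and 1892 at 0 Gy) the Eln ratio was 2.17 [1.71 to 2.74] and the Hmcn1 ratio 0.604 [0.551 to 0.66].

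**Figure D2:**
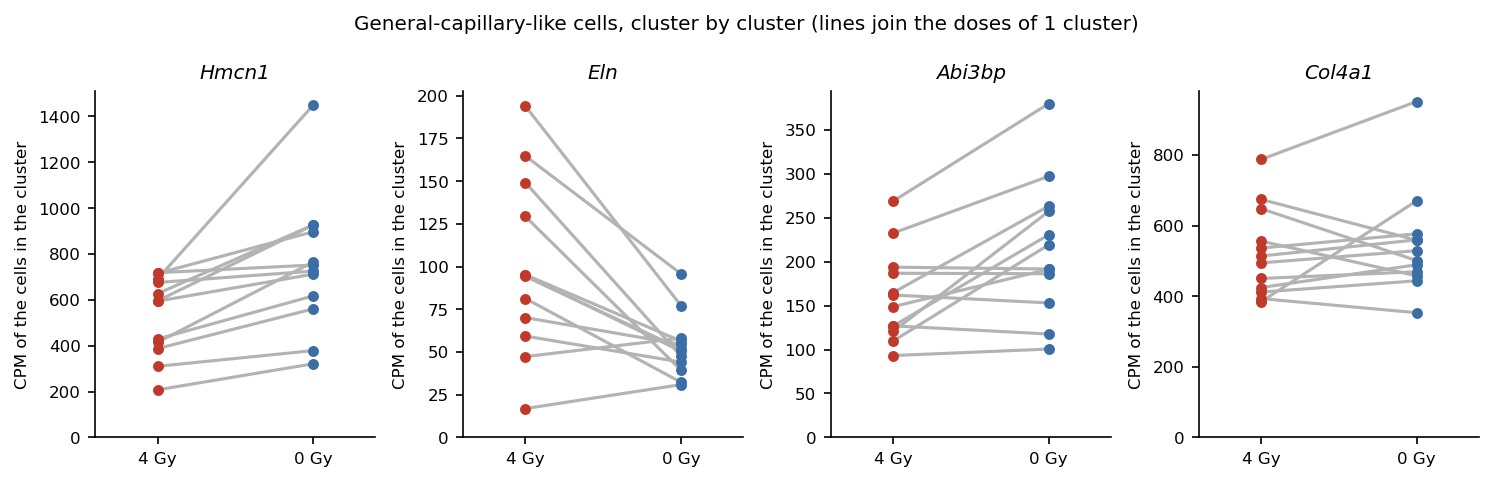
Each panel gives the level of 1 member (CPM of the general-capillary-like cells in a cluster) in the 12 clusters with at least 50 such cells at each dose, 4 Gy left and 0 Gy right, with lines joining the doses of a cluster. All 12 Hmcn1 lines are lower at 4 Gy (ratios 0.477 to 0.955), and 10 Eln lines are higher. Clusters with fewer such cells at either dose are not drawn, and they hold most of the class's cells at 4 Gy.

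In aerocyte-like cells the lower members were abundant and the higher ones scarce. Of 14 members measured, 4 were at least 1.5-fold higher at 4 Gy, beside 8.50% of all 11215 genes measured in the class, and 2 at least 1.5-fold lower, beside 3.81% of all genes. Their median log2 ratio was 0.28, against 0.04 over all measured genes. Mfap2 had 255 CPM at 4 Gy and 497 CPM at 0 Gy, a ratio of 0.512 [0.447 to 0.586]. Abi3bp had 248 CPM at 4 Gy and 444 CPM at 0 Gy, a ratio of 0.56 [0.486 to 0.643]. These were the lower pair, and in 0 Gy aerocyte-like cells Mfap2 was the member with the most UMIs. Col18a1 had 38 UMIs at 4 Gy and 9 at 0 Gy, a ratio of 5.13 [2.44 to 12.1]. Lama5 had 24 UMIs at 4 Gy and 8 at 0 Gy, a ratio of 3.65 [1.59 to 9.39]. Eln had 14 UMIs at 4 Gy and 4 at 0 Gy, a ratio of 4.26 [1.34 to 17.8]. The laminin γ chain gene Lamc3 had 13 UMIs at 4 Gy and 5 at 0 Gy, a ratio of 3.16 [1.06 to 11.3]. With doublets kept the Col18a1 ratio was 3.25, and the Lama5 ratio ran between 2.35 as a mean over cells and 5.58 with a stricter gate, which asked for 1 more marker. Most aerocyte-like cells lay in a cluster of 103 cells at 4 Gy and 434 at 0 Gy or in another of 199 and 9, counting cells of any class. Ratios within these clusters were not computed.

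The type IV pair had intervals that held 1 in aerocyte-like cells. Col4a1 stood at 482 CPM at 4 Gy and 444 CPM at 0 Gy, a ratio of 1.09 [0.971 to 1.22], and Col4a2 at 394 CPM at 4 Gy and 425 CPM at 0 Gy, a ratio of 0.928 [0.822 to 1.05]. Sparc had 221 CPM at 4 Gy and 166 CPM at 0 Gy, a ratio of 1.33 [1.11 to 1.59]. The laminin chains with the most UMIs stayed under the threshold, Lamc1 with 81.1 CPM at 4 Gy and 59.2 CPM at 0 Gy, a ratio of 1.37 [1.02 to 1.85], and Lamb2 with 76.1 CPM at 4 Gy and 74.8 CPM at 0 Gy, a ratio of 1.02 [0.763 to 1.35]. Nid1 had 169 CPM at 4 Gy and 150.3 CPM at 0 Gy, a ratio of 1.12 [0.923 to 1.36]. Col12a1, a collagen that sits on the surface of fibrils, was measured in few classes, and here it had 58.7 CPM at 4 Gy and 60.5 CPM at 0 Gy, a ratio of 0.97 [0.7 to 1.34]. Hmcn1, abundant in general-capillary-like cells, had only 39 UMIs at 4 Gy and 33 at 0 Gy in aerocyte-like cells, a ratio of 1.44 [0.881 to 2.36]. Its ratio was 2.49 with whole clusters in place of gates and 2.4 with the stricter gate. By the marker gate alone, which kept 4 more barcodes, the Sparc ratio was 2.49, 14 members were higher and their median log2 ratio was 1.30. Thinned cells gave Col12a1 a ratio of 0.611.

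In venous-like cells both type IV chains stood higher at 4 Gy and Hmcn1 lower. Of 20 members measured, 5 were at least 1.5-fold higher at 4 Gy, beside 14.3% of all 8892 genes measured in the class, and 2 at least 1.5-fold lower, beside 10.2% of all genes. As a median, the log2 ratio of the members was 0.04, against 0.02 over all measured genes. Col4a2 had 264 CPM at 4 Gy and 159 CPM at 0 Gy, a ratio of 1.66 [1.21 to 2.3], past the threshold. Col4a1 had 470.3 CPM at 4 Gy and 316 CPM at 0 Gy, a ratio of 1.49 [1.19 to 1.88], just under it. Summed over the network-forming chains the level was 743 CPM at 4 Gy and 488 CPM at 0 Gy, a ratio of 1.52 [1.27 to 1.83]. Both multiplexins were higher on few UMIs. Col18a1 had 17 UMIs at 4 Gy and 4 at 0 Gy, a ratio of 3.8 [1.24 to 15.5], and Col15a1 13 UMIs at 4 Gy and 3 at 0 Gy, a ratio of 3.87 [1.06 to 21.2]. Without the cell with the most member UMIs at each dose both intervals held 1, with Col18a1 at 3.18 [0.998 to 13.3] and Col15a1 at 2.42 [0.581 to 14.2]. Lama5 had 96.3 CPM at 4 Gy and 61.6 CPM at 0 Gy, a ratio of 1.56 [0.926 to 2.7], and Lamb2, its partner, 119 CPM at 4 Gy and 151 CPM at 0 Gy, a ratio of 0.788 [0.532 to 1.16]. Of this laminin pair the α chain passed the threshold, with an interval that held 1.

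Hmcn1 was the lower member of venous-like cells with the most UMIs, at 415 CPM at 4 Gy and 852 CPM at 0 Gy, a ratio of 0.487 [0.404 to 0.586]. Fbn1, fibrillin-1, was the other lower one, with 6 UMIs at 4 Gy and 13 at 0 Gy, a ratio of 0.413 [0.129 to 1.16]. Elastin had an interval that held 1 in this class, with Eln at 225 CPM at 4 Gy and 262 CPM at 0 Gy, a ratio of 0.859 [0.644 to 1.14]. Mfap2 stood at 169.7 CPM at 4 Gy and 236 CPM at 0 Gy, a ratio of 0.719 [0.522 to 0.987]. Sparc stood at 463 CPM at 4 Gy and 416 CPM at 0 Gy, a ratio of 1.11 [0.902 to 1.38]. Nid1 at 73.4 CPM (4 Gy) and 53.9 CPM (0 Gy) and Abi3bp at 75.7 CPM (4 Gy) and 92.4 CPM (0 Gy) had intervals that held 1. The Nid1 ratio of 1.36 turned to 0.681 in thinned cells and 0.896 with the stricter gate, the Sparc ratio to 0.794 by the marker gate alone, and the Lamb2 ratio was 0.397 in thinned cells.

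In arterial-like cells, where few cells were kept, most intervals were wide. Of 17 members measured, 5 were at least 1.5-fold higher at 4 Gy, beside 19.7% of all 5857 genes measured in the class, and 2 at least 1.5-fold lower, beside 15.2% of all genes. The members had a median log2 ratio of 0.02, against 0.01 over all measured genes. The lower members were the type IV chains. Col4a1 had 230.0 CPM at 4 Gy and 358 CPM at 0 Gy, a ratio of 0.643 [0.419 to 0.988], and Col4a2 83.2 CPM at 4 Gy and 139.9 CPM at 0 Gy, a ratio of 0.595 [0.288 to 1.22]. The stricter gate, which left 15 cells at each dose, turned the Col4a1 ratio to 1.48. Without the cell with the most member UMIs at each dose neither chain passed, with Col4a1 at 0.803 [0.51 to 1.27] and Col4a2 at 0.915 [0.412 to 2.1]. The Col4a2 ratio also turned, to 1.71 in thinned cells and 1.12 with whole clusters. Among the higher members Hspg2 alone had an interval clear of 1, on 14 UMIs in 5 cells at 4 Gy and 1 UMI at 0 Gy, a ratio of 8.81 [1.34 to 373]. Of its UMIs at 4 Gy 8 came from 1 cell, and without the top cell at each dose it was no longer measured. The mural marker list summed to 685 CPM at 4 Gy and 23.3 CPM at 0 Gy in this class, with 3 of 14 genes detected at 4 Gy and 2 at 0 Gy and Pdgfrb, Myh11 and Des at 0 at both doses. Most of that sum at 4 Gy came from the smooth muscle gene Acta2, with 126 UMIs (616.5 CPM) at 4 Gy and 0 UMIs at 0 Gy. The part of the mural markers in the ratios was not tested.

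The matrix genes of arterial-like cells with the most UMIs had intervals that held 1. Abi3bp stood higher here than in any other class, at 553 CPM at 4 Gy and 598 CPM at 0 Gy, a ratio of 0.924 [0.686 to 1.25]. Eln, a main product of the arterial wall, had 308 CPM at 4 Gy and 303 CPM at 0 Gy, a ratio of 1.02 [0.672 to 1.56]. Fbln2, a fibulin that binds elastic fibres and basement membrane, had 249.5 CPM at 4 Gy and 303 CPM at 0 Gy, a ratio of 0.823 [0.532 to 1.28]. All 3 stood higher in this class than in the other endothelial classes at both doses. Sparc had 440.3 CPM at 4 Gy and 489.6 CPM at 0 Gy, a ratio of 0.899 [0.645 to 1.26], Hmcn1 166 CPM at 4 Gy and 179 CPM at 0 Gy, a ratio of 0.931 [0.532 to 1.65], and Lamb2 206 CPM at 4 Gy and 241 CPM at 0 Gy, a ratio of 0.853 [0.524 to 1.4]. Lama5 had 132 CPM at 4 Gy and 117 CPM at 0 Gy, a ratio of 1.13 [0.582 to 2.29], and Col5a2, a type V chain, 30 UMIs at 4 Gy and 9 at 0 Gy, a ratio of 2.1 [0.971 to 5.03]. Thinned cells gave ratios of 1.07 for Col5a2, 2.57 for Hmcn1 and 1.55 for Sparc, and the stricter gate gave 2.14 for Sparc.

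Across the 8 classes Col18a1 had a ratio above 1 in 7 and was past the threshold upward in 6, with an interval clear of 1 in 5 (general-capillary-like, aerocyte-like, venous-like, mural-like and tumour-epithelial-like cells). Without the cell with the most member UMIs at each dose the interval stayed clear of 1 in 3 of these 5 classes, and held 1 in venous-like cells at 3.18 [0.998 to 13.3] and in mural-like cells at 1.53 [0.961 to 2.42]. It was lower in mesothelial-like cells alone, with 12 UMIs at 4 Gy and 32 at 0 Gy, a ratio of 0.623 [0.292 to 1.24]. In fibroblast-like cells it had 6 UMIs at 4 Gy and 5 at 0 Gy, a ratio of 1.43 [0.364 to 5.92].

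**Figure D3:**
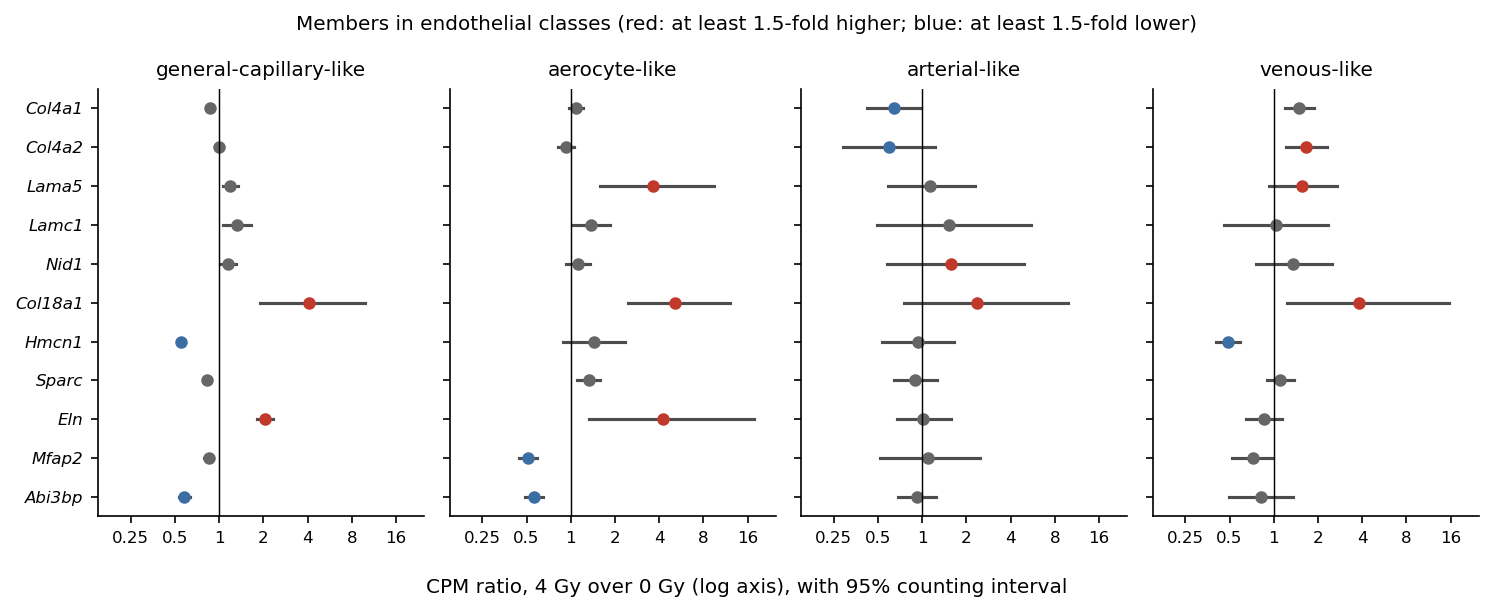
Points give the CPM ratio of 4 Gy over 0 Gy for 11 members in the 4 endothelial classes on a log axis, with 95% counting intervals as lines, and red or blue marks a member at least 1.5-fold higher or lower. Col18a1 lies right of 1 in all 4 panels (2.36 to 5.13), and Hmcn1 lies left of 1 with an interval clear of it in general-capillary-like (0.552) and venous-like (0.487) cells.

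In mural-like cells, which wrap vessels and airways and make their own basement membrane, perlecan and Col18a1 were higher and elastin was lower at 4 Gy. Of 26 members measured, 5 were at least 1.5-fold higher at 4 Gy, beside 16.9% of all 3362 genes measured in the class, and 10 at least 1.5-fold lower, beside 21.7% of all genes. The median over the measured members was, as a log2 ratio, -0.36, against -0.01 over all measured genes. Hspg2 had 34 UMIs in 10 cells at 4 Gy and 21 UMIs in 12 cells at 0 Gy, a ratio of 2.44 [1.37 to 4.42]. Col18a1 stood at 695 CPM at 4 Gy and 396 CPM at 0 Gy, a ratio of 1.76 [1.14 to 2.72], its highest level in any class. Eln had 25 UMIs in 8 cells at 4 Gy and 80 UMIs in 16 cells at 0 Gy, a ratio of 0.47 [0.288 to 0.745]. With it the summed level of the elastic fibre members was 482 CPM at 4 Gy and 951 CPM at 0 Gy, a ratio of 0.507 [0.333 to 0.754]. Nid1 had 3 UMIs at 4 Gy and 20 at 0 Gy, a ratio of 0.226 [0.043 to 0.761]. Without the top cell at each dose the intervals of Col18a1, Col4a2 and Col3a1 held 1, at 1.53 [0.961 to 2.42], 0.65 [0.347 to 1.16] and 0.657 [0.382 to 1.1]. With whole clusters in place of gates the Hspg2 ratio was 1.49.

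Depth and marker levels differed between the doses in mural-like cells. Median UMIs per cell were 5782 at 4 Gy and 2758 at 0 Gy. With each cell thinned to 1000 UMIs the median log2 ratio of the members was -0.92, in place of -0.36, and 1 member was higher, in place of 5. Ratios were then 0.121 for Col1a1, 0.386 for Col3a1, 0.321 for Lamb2 and 0.289 for Eln. The mural marker list, with all 14 genes detected, summed to 21693 CPM at 4 Gy and 28509 CPM at 0 Gy, and Acta2, the actin of smooth muscle and one of its genes, stood at 10492 CPM at 4 Gy and 16925 CPM at 0 Gy. The fibroblast list summed to 3715 CPM at 4 Gy and 2147 CPM at 0 Gy, with 8 of 15 genes detected at 4 Gy and 9 at 0 Gy and Dcn, Lum and Pdgfra at 0 at both doses. The part of these markers in the ratios was not tested.

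Both type IV chains in mural-like cells had ratios below 1. Col4a1 stood at 298 CPM at 4 Gy and 349 CPM at 0 Gy, a ratio of 0.854 [0.475 to 1.5], and Col4a2 at 241 CPM at 4 Gy and 452 CPM at 0 Gy, a ratio of 0.533 [0.287 to 0.944], the wider difference. Of 6 fibrillar chains measured 3 were lower past the threshold and 1 was higher. Col3a1, the chain of type III collagen, had 312 CPM at 4 Gy and 527 CPM at 0 Gy, a ratio of 0.591 [0.344 to 0.984]. The type I chains had intervals that held 1, with Col1a1 at 284 CPM at 4 Gy and 452 CPM at 0 Gy, a ratio of 0.627 [0.353 to 1.08], and Col1a2 at 425 CPM at 4 Gy and 556 CPM at 0 Gy, a ratio of 0.765 [0.476 to 1.21]. As means over cells the ratios were 0.412 for Col1a2, 0.374 for Col3a1 and 0.62 for Lamb2. Sparc had 1475 CPM at 4 Gy and 1865 CPM at 0 Gy, a ratio of 0.791 [0.618 to 1.01]. Lamb2 had 326 CPM at 4 Gy and 339 CPM at 0 Gy, a ratio of 0.962 [0.544 to 1.67], and Lama4, an α chain of vascular laminin, 199 CPM at 4 Gy and 273 CPM at 0 Gy, a ratio of 0.727 [0.355 to 1.42]. The type VI chains, which form beaded filaments, did not go one way, with Col6a1 at 0.948, Col6a2 at 0.753 and Col6a3 at 2.01 as ratios.

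In fibroblast-like cells the fibrillar collagens and Sparc stood lower at 4 Gy, on few cells. Of 29 members measured, 4 were at least 1.5-fold higher at 4 Gy, beside 20.0% of all 3124 genes measured in the class, and 9 at least 1.5-fold lower, beside 21.7% of all genes. The measured members had a median log2 ratio of -0.32, against -0.01 over all measured genes. Of 6 fibrillar chains measured 5 were lower past the threshold, and their summed level was 8617 CPM at 4 Gy and 14977 CPM at 0 Gy, a ratio of 0.575 [0.521 to 0.635]. Col1a1 had 2344 CPM at 4 Gy and 4652 CPM at 0 Gy, a ratio of 0.504 [0.417 to 0.606]. Col1a2, which joins it in type I collagen, had 2587 CPM at 4 Gy and 4077 CPM at 0 Gy, a ratio of 0.634 [0.527 to 0.762]. Col3a1 had 3229.6 CPM at 4 Gy and 5348 CPM at 0 Gy, a ratio of 0.604 [0.512 to 0.71]. The type V chains, which help to start type I fibrils, were lower on fewer UMIs. Col5a1 had 8 UMIs at 4 Gy and 25 at 0 Gy, a ratio of 0.381 [0.149 to 0.872], and Col5a2 19 UMIs at 4 Gy and 44 at 0 Gy, a ratio of 0.515 [0.284 to 0.9]. Sparc had 1343 CPM at 4 Gy and 3585 CPM at 0 Gy, a ratio of 0.375 [0.294 to 0.474], the lowest ratio of these. The match to the cluster, added after the data were seen, left out 13 of the 57 cells that passed the fibroblast gate. By the marker gate alone Sparc and Col3a1 did not pass the threshold, at ratios of 0.897 and 0.931.

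A single 0 Gy cell carried much of that difference. It held 797 member UMIs, 37.6% of all member UMIs of the fibroblast-like cells at 0 Gy, while the top cell at 4 Gy held 224, or 19.6%. Without the cell with the most member UMIs at each dose the number of lower members was 5 in place of 9, and the ratio of the summed level was 0.807 [0.741 to 0.878] in place of 0.642. The Col1a1 ratio was then 0.707 [0.561 to 0.888], the Col1a2 ratio 0.742 [0.597 to 0.919] and the Sparc ratio 0.536 [0.405 to 0.706]. The other fibrillar chains then had intervals that held 1, with Col3a1 at 0.874 [0.715 to 1.07], Col5a1 at 0.41 [0.132 to 1.09] and Col5a2 at 0.687 [0.318 to 1.43]. Thinned cells gave ratios of 0.791 for Col1a1, 0.579 for Col5a1 and 1.16 for Col5a2.

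The type VI chains of fibroblast-like cells stayed under the threshold. Col6a1 had 500.2 CPM at 4 Gy and 539.6 CPM at 0 Gy, a ratio of 0.927 [0.578 to 1.47]. Col6a2 had 314 CPM at 4 Gy and 372 CPM at 0 Gy, a ratio of 0.846 [0.467 to 1.51], and Col6a3 286 CPM at 4 Gy and 216 CPM at 0 Gy, a ratio of 1.32 [0.665 to 2.66]. So did Col14a1, a fibril-associated collagen with its highest level in this class, at 972 CPM at 4 Gy and 935 CPM at 0 Gy, a ratio of 1.04 [0.739 to 1.46]. Fbn1 had 529 CPM at 4 Gy and 612 CPM at 0 Gy, a ratio of 0.865 [0.55 to 1.35], and Eln 443 CPM at 4 Gy and 612 CPM at 0 Gy, a ratio of 0.724 [0.448 to 1.15]. Thinned cells gave ratios of 2.32 for Col6a1, 0.515 for Col14a1, 2.08 for Fbn1 and 0.386 for Eln. Of the basement membrane genes Nid1 had 286 CPM at 4 Gy and 384 CPM at 0 Gy, a ratio of 0.745 [0.404 to 1.34], and Lamc1 and Hspg2 were past the threshold upward with intervals that held 1, at 1.66 and 2.25. The fibroblast marker list summed to 44971 CPM at 4 Gy and 41380.4 CPM at 0 Gy, with all 15 genes detected at both doses and all 6 mesothelial markers at 0.

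Mesothelial-like cells, which line the pleura, stood higher at 4 Gy for the fibrillar chains, though mostly under the threshold. Of 34 members measured, 2 were at least 1.5-fold higher at 4 Gy, beside 9.32% of all 9673 genes measured in the class, and 2 at least 1.5-fold lower, beside 12.8% of all genes. Their median log2 ratio was 0.16, against -0.04 over all measured genes. The summed level of the fibrillar chains was 9143 CPM at 4 Gy and 6719 CPM at 0 Gy, a ratio of 1.36 [1.31 to 1.42]. Col3a1 had 3667 CPM at 4 Gy and 2560.2 CPM at 0 Gy, a ratio of 1.43 [1.34 to 1.53]. Col1a2 had 2597 CPM at 4 Gy and 2028 CPM at 0 Gy, a ratio of 1.28 [1.19 to 1.38]. Col1a1 had 1811 CPM at 4 Gy and 1401 CPM at 0 Gy, a ratio of 1.29 [1.18 to 1.41]. Among these 3 chains all intervals lay above 1. The type V chains were Col5a2 with 873 CPM at 4 Gy and 600.2 CPM at 0 Gy, a ratio of 1.46 [1.27 to 1.66], and Col5a1 with 138 CPM at 4 Gy and 85.4 CPM at 0 Gy, a ratio of 1.61 [1.13 to 2.29], of which Col5a1 was past the threshold. Median UMIs per cell were 23473 at 4 Gy and 17904 at 0 Gy. When each cell was thinned to 1000 UMIs the Col1a1 ratio was 0.889, the Col6a2 ratio 0.838 and the median log2 ratio of the members -0.16. Thinned ratios were closer to 1 for Col1a2 (1.05), Col5a2 (1.13) and Col6a1 (1.07). Whole clusters in place of gates gave 1.18 for Col1a2 and 1.22 for Col5a2, and the stricter gate 1.63 for Col3a1 and 1.42 for Col1a1.

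Of the other members in mesothelial-like cells, Sparc had the most UMIs, at 5956 CPM at 4 Gy and 5674 CPM at 0 Gy, a ratio of 1.05 [1.0 to 1.1]. Type VI collagen was slightly higher, with Col6a1 at 1174 CPM at 4 Gy and 928 CPM at 0 Gy, a ratio of 1.26 [1.13 to 1.41], and Col6a2 at 636 CPM at 4 Gy and 537 CPM at 0 Gy, a ratio of 1.18 [1.02 to 1.37]. Col6a3 had 123 CPM at 4 Gy and 104 CPM at 0 Gy, a ratio of 1.18 [0.831 to 1.67]. Lama4 was past the threshold, at 75 CPM at 4 Gy and 41.4 CPM at 0 Gy, a ratio of 1.81 [1.1 to 3.0]. Type IV collagen went the other way, under the threshold, with Col4a1 at 238 CPM at 4 Gy and 320.2 CPM at 0 Gy, a ratio of 0.742 [0.59 to 0.929], and Col4a2 at 186 CPM at 4 Gy and 214 CPM at 0 Gy, a ratio of 0.869 [0.665 to 1.13]. Fbln2 had 327 CPM at 4 Gy and 246 CPM at 0 Gy, a ratio of 1.33 [1.07 to 1.65]. Eln had 411 CPM at 4 Gy and 462 CPM at 0 Gy, a ratio of 0.889 [0.744 to 1.06]. The 2 lower members past the threshold were Col18a1 and Col12a1, each with an interval that held 1. In thinned cells the ratios of Lama4 and Fbln2 were 4.19 and 2.1. The mesothelial marker list summed to 2433 CPM at 4 Gy and 2577 CPM at 0 Gy, with all 6 genes detected. The fibroblast list summed to more, 4056.5 CPM at 4 Gy and 3511 CPM at 0 Gy. Of its 15 genes 12 were detected at 4 Gy and 13 at 0 Gy, with Dpt and Mfap4 at 0 at both doses. Dcn, the gene that led the class, stood at 3052 CPM at 4 Gy and 2431 CPM at 0 Gy. Pdgfra stood at 119 CPM at 4 Gy and 156 CPM at 0 Gy. The mural list summed to 183 CPM at 4 Gy and 645 CPM at 0 Gy, with 8 of 14 genes detected at 4 Gy and 7 at 0 Gy, Acta2 at 70.9 CPM at 4 Gy and 433 CPM at 0 Gy and Myh11 at 0 at both doses. The tumour epithelial list summed to 1538 CPM at 4 Gy and 2649 CPM at 0 Gy, with 9 of 12 genes detected at 4 Gy and 10 at 0 Gy and Krt20 and Cldn4 at 0 at both doses. The part of these lists in the ratios was not tested.

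**Figure D4:**
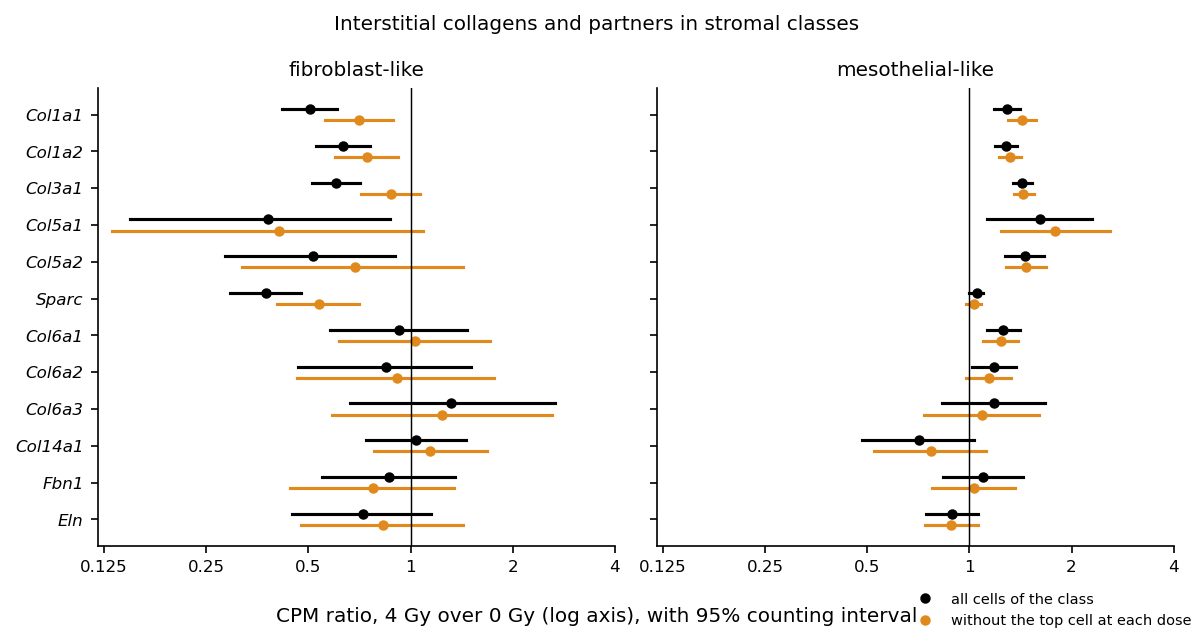
Points give the CPM ratio of 4 Gy over 0 Gy on a log axis with 95% counting intervals for 12 members in fibroblast-like and mesothelial-like cells, for all cells (black) and without the cell with the most member UMIs at each dose (orange). Col3a1 moves to 0.874 in fibroblast-like cells without those cells, and the fibrillar chains lie right of 1 in mesothelial-like cells.

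In tumour-epithelial-like cells the summed level of the members was higher at 4 Gy, 1228 CPM at 4 Gy and 725 CPM at 0 Gy, a ratio of 1.69 [1.46 to 1.97]. Of 15 members measured, 7 were at least 1.5-fold higher at 4 Gy, beside 16.3% of all 7653 genes measured in the class, and 0 at least 1.5-fold lower, beside 18.7% of all genes. Over the measured members the median log2 ratio was 0.47, against -0.04 over all measured genes. By the marker gate alone, which kept 5 more barcodes, 9 members were lower and the median log2 ratio was -0.22. With each cell thinned to 1000 UMIs 0 were higher. Thinning leaves fewer UMIs, so that fewer members can reach the minimum of 10, and the number still measured is not given. Fbln2 had 39 UMIs in 10 cells at 4 Gy and 6 UMIs in 4 cells at 0 Gy, a ratio of 14.7 [6.16 to 42.4]. Col27a1, a fibrillar collagen best known from cartilage, had 30 UMIs in 9 cells at 4 Gy and 11 UMIs in 9 cells at 0 Gy, a ratio of 6.15 [3.0 to 13.6]. Col18a1 had 38 UMIs at 4 Gy and 41 at 0 Gy, a ratio of 2.09 [1.31 to 3.33]. Nid1 was higher on few UMIs, with 13 UMIs at 4 Gy and 6 at 0 Gy, a ratio of 4.88 [1.73 to 15.7]. Hspg2 and Lamc1 were also among the higher members, at ratios of 1.93 and 1.6 with intervals that held 1.

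Other basement membrane genes of tumour-epithelial-like cells had intervals that held 1. Col4a1 had 51.8 CPM at 4 Gy and 53.1 CPM at 0 Gy, a ratio of 0.977 [0.468 to 1.93]. Lama5 had 51.8 CPM at 4 Gy and 61.9 CPM at 0 Gy, a ratio of 0.837 [0.407 to 1.62]. Lamb1, a β chain, had 35.9 CPM at 4 Gy and 38.9 CPM at 0 Gy, a ratio of 0.922 [0.374 to 2.08]. So did Col6a1, with 87.7 CPM at 4 Gy and 76.1 CPM at 0 Gy, a ratio of 1.15 [0.657 to 1.97]. Sparc, with the most UMIs of any member here, had 247 CPM at 4 Gy and 177 CPM at 0 Gy, a ratio of 1.4 [1.0 to 1.94], under the threshold. Thinned cells gave Lama5 a ratio of 0.332, whole clusters in place of gates turned it to 1.32 and that of Sparc to 0.876, and without the top cell at each dose the ratio was 0.562 for Lamb1 and 1.78 for Col6a1.

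The deepest cells weighed most in these sums. In tumour-epithelial-like cells the top cell held 21.8% of the member UMIs at 4 Gy and 7.56% at 0 Gy, and median UMIs per cell were 3392 at 4 Gy and 2237 at 0 Gy. Without the top cell at each dose the Fbln2 ratio was 11.1 [4.5 to 33], the Col27a1 ratio 5.17 [2.42 to 11.7] and the Col18a1 ratio 1.95 [1.17 to 3.23]. When every cell counted equally the Fbln2 ratio was 6.54, the Col27a1 ratio 4.72, the Col18a1 ratio 1.97 and the Sparc ratio 0.462. By the marker gate alone, without the match to the cluster, the Fbln2 ratio was 3.09 and the Sparc ratio 0.346. Of 6 mesothelial markers Msln alone was detected, at 299 CPM at 4 Gy and 92 CPM at 0 Gy, and the 15 fibroblast markers summed to 144 CPM at 4 Gy and 232 CPM at 0 Gy with Dcn and Pdgfra at 0. Their part in the ratios was not tested.

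**Figure D5:**
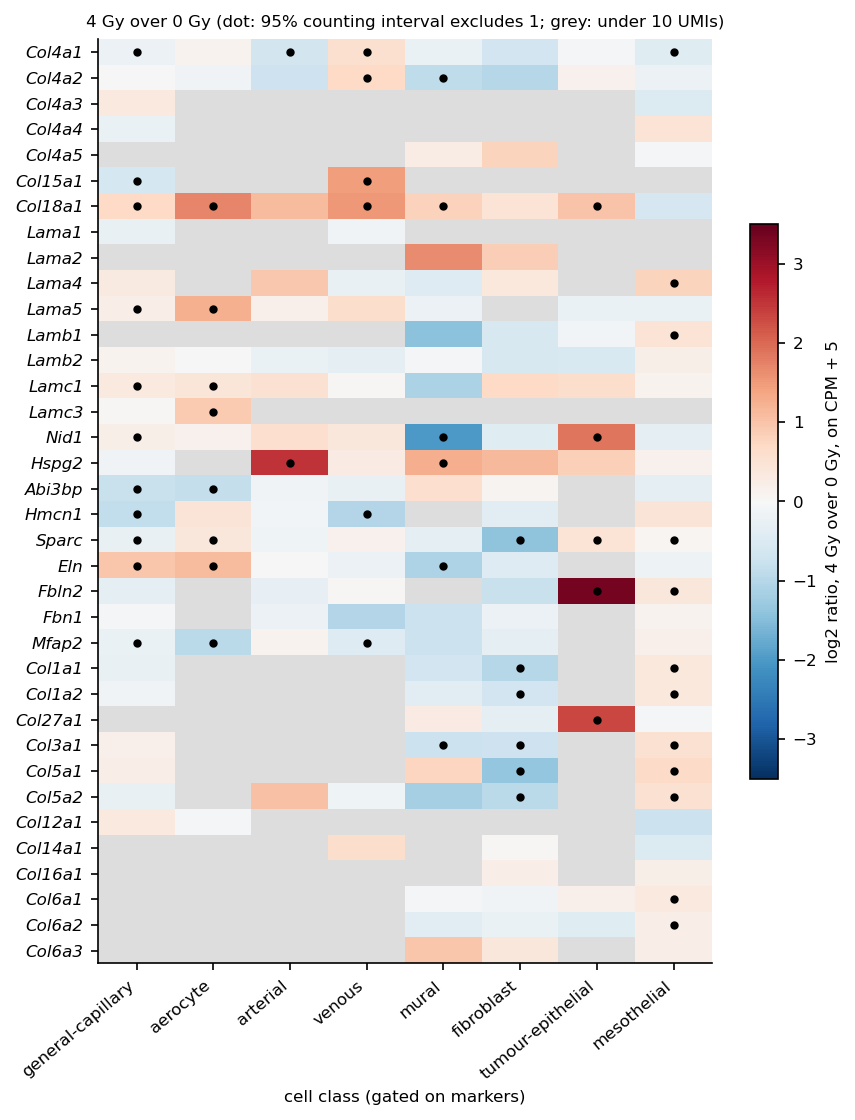
Colour shows the log2 ratio of 4 Gy over 0 Gy, on CPM + 5, for the same 36 members in 8 classes, with grey where a member had under 10 UMIs and a dot where the 95% counting interval excludes 1. Col18a1 is red in 7 of 8 classes, and Col1a1 is blue in fibroblast-like cells (ratio 0.504) and red in mesothelial-like cells (1.29).

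Col10a1, Col11a2, Col17a1, Col24a1, Col7a1, Col8a1, Col8a2, Lama3 and Lamb3 had fewer than 10 UMIs in every class, and a difference between doses was not detectable for them at this depth. The α3 and α4 chains of type IV collagen, which in the lung belong to alveolar epithelial basement membrane, had 348 and 238 UMIs over both CD45-negative libraries. Of these 62 and 55 lay in the 8 classes. Fibrillar chains too had many UMIs outside the classes. Those inside were 2628 of 6004 for Col1a1, 3500 of 6364 for Col1a2 and 4588 of 8651 for Col3a1, against 8498 of 11274 for Col4a1.

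Genes that act on or around the members were compared in the same way, in lists of collagen processing enzymes, matrix receptors, other basement membrane genes and other elastic fibre genes. In general-capillary-like cells 1 of 20 measured processing genes was at least 1.5-fold higher and 0 lower, beside 2.16% of all measured genes higher and 1.01% lower. Of 10 receptors, 6 other basement membrane genes and 6 other elastic fibre genes, 0 passed in either direction. The gene that passed was Plod2, a lysyl hydroxylase of collagen, with 31.7 CPM at 4 Gy and 14.9 CPM at 0 Gy, a ratio of 2.13 [1.67 to 2.73]. Plod2 was higher in aerocyte-like cells too, with 36.4 CPM at 4 Gy and 15.6 CPM at 0 Gy, a ratio of 2.33 [1.37 to 4.04], and in tumour-epithelial-like cells, with 11 UMIs at 4 Gy and 5 at 0 Gy, a ratio of 4.96 [1.59 to 18.2]. Aerocyte-like cells had 2 of 17 processing genes, 1 of 7 receptors and 2 of 6 other basement membrane genes higher and 0 lower, beside 8.50% of all measured genes higher and 3.81% lower. The receptor was Itga6, a subunit of laminin-binding integrins, with 53.8 CPM at 4 Gy and 16.3 CPM at 0 Gy, a ratio of 3.29 [2.03 to 5.5]. Tinagl1, a basement membrane glycoprotein, had 71.1 CPM at 4 Gy and 37.4 CPM at 0 Gy in aerocyte-like cells, a ratio of 1.9 [1.34 to 2.72]. In venous-like cells Tinagl1 had 755 CPM at 4 Gy and 482 CPM at 0 Gy, a ratio of 1.56 [1.3 to 1.88].

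In fibroblast-like cells 6 of 11 processing genes were at least 1.5-fold lower and 1 higher, beside 21.7% of all measured genes lower and 20.0% higher. Without the cell with the most member UMIs at each dose 3 of 10 were lower. Serpinh1, the collagen chaperone, was among the lower ones with 529 CPM at 4 Gy and 803 CPM at 0 Gy, a ratio of 0.658 [0.428 to 0.998], and had an interval that held 1 without those cells, at 0.664 [0.416 to 1.04]. Among the other elastic fibre genes of that class Mfap5, a microfibril glycoprotein, had 986 CPM at 4 Gy and 2050.4 CPM at 0 Gy, a ratio of 0.481 [0.358 to 0.64], and Efemp1, a fibulin, 543 CPM at 4 Gy and 192 CPM at 0 Gy, a ratio of 2.83 [1.54 to 5.44]. In mesothelial-like cells 5 of 21 processing genes were higher and 0 lower, beside 9.32% of all measured genes higher and 12.8% lower, among the higher ones the crosslinking enzyme gene Lox, a ratio of 1.76 [1.06 to 2.92]. In tumour-epithelial-like cells 7 of 14 processing genes were higher and 1 lower, beside 16.3% of all measured genes higher and 18.7% lower, and by the marker gate alone 4 of 16 higher and 2 lower. Serpinh1 had 219 CPM at 4 Gy and 120.3 CPM at 0 Gy there, a ratio of 1.82 [1.25 to 2.64], and by the marker gate alone a ratio of 1.1 [0.782 to 1.53]. Of 8 receptors 3 were higher and 2 lower, and without the top cell at each dose 1 higher and 2 lower. Over all cells the integrin subunit Itga3 had 79.7 CPM at 4 Gy and 23 CPM at 0 Gy, a ratio of 3.47 [1.64 to 7.59]. Its ratio was 2.85 [1.27 to 6.51] without the top cell at each dose.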

How the data were processed

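The authors deposited 1 table per library with cells in rows and 20640 genes in columns. Its values are log2(CPM + 1), the authors' own normalisation, read from the values. Per the submitters' processing notes STAR, Partek and Seurat were used with mm10, and versions and filters are not given in the sources used here. A count table had been planned for. Each cell's smallest step gave 1 UMI, and whole UMIs were recovered for at least 99.9993% of nonzero values within a tolerance of 0.02, so the UMIs of each class were added up within a library and divided by the class's total.

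Scrublet scores were computed, but the automatic threshold marked only 0.0464% of barcodes at 4 Gy and 0.0669% at 0 Gy, so the 149 and 286 top-scoring barcodes, the share expected from the load, were removed, which left 4164 and 5693. Clusters (Leiden, resolution 2, 2000 variable genes without the members, 30 components, 15 neighbours, seed 0) gave each cell a lineage, which had to match its marker gate. That match was added after the data were seen. Members with at least 10 UMIs over both libraries were measured, ratios have exact conditional binomial 95% intervals, and a call is a ratio of at least 1.5 on CPM + 5. In each class the 10 members with most UMIs were named, up to 5 with the highest and 5 with the lowest ratio among those with at least 30 UMIs and an interval clear of 1, and chain partners. A few called members under 30 UMIs were named after their values were seen. The values of 1 member are not reported here. The ratio step was tested on simulated counts with counting error alone. That test cannot speak to spread between cells, such as single cells that hold much of a class's member UMIs.

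The members and gene lists were chosen with earlier results of these data known. Alternatives were other pseudocounts and UMI minimums, a stricter gate, clusters in place of gates, doublets kept, a median-of-ratios scaling, the mean over cells, cells thinned to 1000 UMIs and, added after the data were seen, the marker gate alone, leaving out the top cell at each dose and leaving out a cluster led by platelet genes. Python 3.11.15, numpy 2.4.6, scipy 1.17.1, pandas 2.3.3, scanpy 1.11.5 and matplotlib 3.10.9 were used.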

Additional observations from a re-analysis of the deposited data

Results flagged for a closer look

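Some members were past the 1.5-fold threshold upward in one class and downward in another, each with a counting interval clear of 1. Pairs with a value under the threshold are not listed, such as Sparc at 1.33 in aerocyte-like and 0.375 in fibroblast-like cells. The difference between the classes was not tested, since each dose has 1 library. Elastin (Eln) had a ratio of 2.06 in general-capillary-like and 4.26 in aerocyte-like cells but 0.470 in mural-like cells. Col15a1 had 3.87 in venous-like and 0.426 in general-capillary-like cells. Col4a2 had 1.66 in venous-like and 0.533 in mural-like cells. Col5a1 had 1.61 in mesothelial-like and 0.381 in fibroblast-like cells, and Nid1 4.88 in tumour-epithelial-like and 0.226 in mural-like cells. Of these values 3 had an interval that held 1 once the cell with the most member UMIs at each dose was left out: Col5a1 in fibroblast-like cells at 0.410 [0.132 to 1.09], Col4a2 in mural-like cells at 0.650 [0.347 to 1.16] and Col15a1 in venous-like cells at 2.42 [0.581 to 14.2].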

How the results depend on the processing

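Counts of members past the threshold rested on the settings in the small classes. For the alternative settings, here and in the sections above, the share of all genes past the threshold was not computed. The number of members measured can also differ between settings and is not given. These counts therefore have no share to be set against. With at least 30 UMIs the higher members were 2 in aerocyte-like, 1 in arterial-like, 1 in fibroblast-like, 2 in mural-like, 4 in tumour-epithelial-like and 2 in venous-like cells, and the lower ones 1 in mesothelial-like, 4 in mural-like and 1 in venous-like cells. With no filter on UMIs the higher members were 13 in arterial-like, 8 in fibroblast-like, 4 in mesothelial-like, 9 in mural-like and 8 in venous-like cells, and the lower ones 6 in arterial-like, 16 in fibroblast-like, 3 in tumour-epithelial-like and 9 in venous-like cells. A pseudocount of 1 CPM gave 5 higher and 5 lower in general-capillary-like and 1 lower in tumour-epithelial-like cells. A pseudocount of 50 CPM gave 0 higher in aerocyte-like and mesothelial-like, 3 in arterial-like, 1 in general-capillary-like and 1 in venous-like cells, and 0 lower in arterial-like and mesothelial-like and 1 in venous-like cells. Whole clusters in place of gates gave 2 higher in arterial-like, 3 higher in mural-like and 5 lower in venous-like cells. The stricter gate gave 3 higher and 1 lower in arterial-like and 1 lower in mesothelial-like cells, and a Col4a1 ratio of 1.48 in arterial-like cells. The mean over cells gave 3 higher and 0 lower in arterial-like, 1 higher in general-capillary-like, 5 lower in fibroblast-like, 3 lower in tumour-epithelial-like and 1 lower in venous-like cells. Median-of-ratios scaling gave 1 lower in arterial-like and 1 lower in tumour-epithelial-like cells, and keeping doublets 1 lower in tumour-epithelial-like cells. The marker gate alone gave 14 higher in aerocyte-like, 3 higher and 7 lower in venous-like, 1 lower in arterial-like and 9 lower in tumour-epithelial-like cells, and turned the median log2 ratio of the last to -0.22. Thinned cells gave 2 higher in arterial-like, fibroblast-like and venous-like, 1 in general-capillary-like and mural-like and 0 in tumour-epithelial-like cells, and 4 lower in fibroblast-like cells. They also gave a median log2 ratio of -0.16 in mesothelial-like cells and ratios of 0.889 for Col1a1 and 0.838 for Col6a2 there, and of 1.16 for Col5a2 in fibroblast-like cells. Leaving out the top cell at each dose gave 0 lower in arterial-like, 5 in fibroblast-like and 2 in tumour-epithelial-like cells. The cause was not tested. In general-capillary-like cells the ratios of Hmcn1, between 0.532 and 0.604, and Eln, between 1.96 and 2.17, kept their side of the threshold under the settings run. No paired analysis was possible because each dose and sort has 1 library, and no library could be left out. Depth limits the scarce classes most, where 1 UMI is worth many CPM.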

Other observations

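In the whole CD45-positive libraries the members summed to 111 CPM at 4 Gy and 78.5 CPM at 0 Gy, against 3850.3 CPM at 4 Gy and 4422 CPM at 0 Gy in the CD45-negative libraries. Against that sum, 4 members stood higher in the CD45-positive library at both doses (Lamb3, Col11a2, Col10a1 and Col23a1). Lamb3, a β chain of epithelial laminin, had the most UMIs of these, with 31.9 CPM at 4 Gy and 35.1 CPM at 0 Gy in CD45-positive and 3.86 CPM at 4 Gy and 5.17 CPM at 0 Gy in CD45-negative libraries, while the other 3 stayed under 3 CPM in all 4 libraries. For Col23a1 and Col10a1 the counting intervals of both sorts overlapped at each dose. At 4 Gy Col23a1 stood at 2.2 CPM [1.74 to 2.73] in the CD45-positive and 2.17 CPM [1.43 to 3.16] in the CD45-negative library. In CD45-positive libraries Sparc stood at 13.3 CPM at 4 Gy and 4.78 CPM at 0 Gy, Col3a1 at 7.39 CPM at 4 Gy and 0.665 CPM at 0 Gy, and Col1a1 at 3.90 CPM at 4 Gy and 0.915 CPM at 0 Gy. The cells that gave these UMIs were not analysed here. These genes were named after their values were seen.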
